A study of Mus musculus with 16 samples.

Results

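The genes described here are 10 genes of antigen presentation by the major histocompatibility complex (MHC), picked by symbol among the 51912 genes of the deposited count table. Of these, 5 belong to class II presentation (H2-Aa, H2-Ab1, H2-Eb1, Cd74 and Ciita), 3 to class I (H2-K1, H2-D1 and B2m) and 2 to peptide transport for class I (Tap1 and Tap2). All 10 were found in the table, and all 10 averaged at least 1 CPM (read counts scaled to a common library size), the level needed to enter the tests, which 15380 genes reached.

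MHC molecules hold peptides at the cell surface, where T cells read them. Class I molecules are a heavy chain paired with β2-microglobulin, are made by nearly all cells, and carry peptides that the TAP transporter moves from the cytosol into the endoplasmic reticulum. Class II molecules are an α and a β chain guarded by the invariant chain until they are loaded, and their production is normally limited to professional antigen-presenting cells such as macrophages, dendritic cells and B cells, where the transactivator CIITA switches them on. Interferons raise the genes of both classes in many cell types. The retinal pigment epithelium (RPE) lies between the photoreceptors and the choroid, a vascular layer that holds resident macrophages.

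RNA was measured in the RPE of 40-week-old male C57BL/6 mice in 4 groups of 4 libraries: wild type untreated, wild type with hydroquinone, SUCNR1 knockout untreated, and SUCNR1 knockout with hydroquinone. Hydroquinone is a component of cigarette smoke known to cause oxidative stress, and SUCNR1 is the cell surface receptor for succinate. How the gene was deleted and how hydroquinone was given are not given in the sources used here. Each library came from 1 eye, and the titles name 13 mice, with 2, 4, 3 and 4 mice in the groups in the order above, whereas the protocol label gives 4 animals to a group. Groups given hydroquinone are called treated below. The eyes of a mouse were taken as separate libraries, so p-values measure in part the spread between eyes. In bulk tissue, more cells of a type and more RNA per cell cannot be told apart.

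Total counts ran from 21113549 to 35332444 per library. Between 21277 and 24477 genes had a count in 14 libraries. Fewer did in replicate 1 of the untreated knockouts (17904) and replicate 3 of the untreated wild types (18282). Library identifiers come with or without a letter (2 and 2 in 3 groups, 1 with a letter and 3 without in wild type with hydroquinone), and this form was treated as a possible batch. Counts of Sucnr1 were too low to check the genotypes, with 29 counts over the 8 wild-type libraries, 28 of them untreated, and 4 over the 8 knockout libraries. The defining RPE markers were present in every library (13 genes, summed level 24027 to 38755 CPM), with rod photoreceptor markers between 264.0 and 24730 CPM (15 genes) and macrophage and microglia markers between 480.0 and 1177 CPM (16 genes). Markers of the cornea (5 keratin and related genes) summed to between 3343 and 27544 CPM, and those of oligodendrocytes (5 genes) to between 143.2 and 8531 CPM. The RPE preparation therefore also held RNA of other cell types.

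Of the 10 genes, 6 had a promoter in the RefSeq table used here (GRCm38.p6). Of the 4 that share a motif arrangement 3 are shown first, because class II and class I members of the set stand side by side in it. Each sequence gives the 220 bases up to the gene's RefSeq start site, 5′ to 3′ on the gene's strand. H2-Aa is at chr17:34287824-34288043 (minus strand), H2-K1 at chr17:34000348-34000567 (minus) and B2m at chr2:122147467-122147686 (plus). H2-D1 has the arrangement too and its sequence is not printed, since GENCODE, used for gene positions below, starts that gene upstream of its RefSeq start and annotates the window as transcribed. Capitals mark matches, on either strand, to 4 motifs: TGACG (core of the X2 box), ATTGG (core of the Y box), GGGATTCCC (a kappa B site) and AANNGAAA (core of an interferon regulatory factor site).
H2-Aa: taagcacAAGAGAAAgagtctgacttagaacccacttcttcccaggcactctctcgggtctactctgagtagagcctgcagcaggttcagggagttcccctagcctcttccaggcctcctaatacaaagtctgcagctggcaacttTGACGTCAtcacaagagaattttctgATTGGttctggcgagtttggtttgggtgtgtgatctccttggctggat
H2-K1: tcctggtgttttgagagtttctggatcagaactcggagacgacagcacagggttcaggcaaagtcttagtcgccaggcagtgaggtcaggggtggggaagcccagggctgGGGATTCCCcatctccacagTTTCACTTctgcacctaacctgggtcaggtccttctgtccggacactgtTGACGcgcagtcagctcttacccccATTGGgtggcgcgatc
B2m: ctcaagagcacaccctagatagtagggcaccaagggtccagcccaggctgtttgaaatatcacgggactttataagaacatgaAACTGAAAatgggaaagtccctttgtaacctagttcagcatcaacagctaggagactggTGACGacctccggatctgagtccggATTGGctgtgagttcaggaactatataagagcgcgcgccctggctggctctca

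In all 4 promoters TGACG was followed by ATTGG on the gene's strand, with a start-to-start distance of 26 bases in H2-Aa and 25 bases in H2-K1, H2-D1 and B2m. In H2-Aa TGACG lies on both strands in the palindrome TGACGTCA, so its matches overlap there. The X and Y boxes form the SXY module, on which CIITA acts at class II genes and its relative NLRC5 at class I genes. This pair of motifs, 20 to 30 bases apart, was present in 0.252% of 32544 promoter windows (250 bases before to 50 after the start), while ATTGG alone was in 37.4%, TGACG alone in 20.9% and AANNGAAA in 23.9%. H2-K1 and H2-D1 also shared GGGATTCCC, found in 0.353% of promoters. The arrangement was not found in the windows of H2-Eb1 and Tap1. The motifs were picked after the sequences were seen, and the matches describe letters only.

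The class II chains and the invariant chain were detected in every library. H2-Aa (ENSMUSG00000036594, chromosome 17, 34282744 to 34287823, minus strand, GRCm38 throughout) encodes an α chain. Its level was 57.96, 57.05, 44.25 and 32.44 CPM in untreated wild-type replicates 1 to 4, and 56.44, 75.19, 38.52 and 107.5 CPM in treated wild type. In untreated knockout it was 59.02, 46.42, 25.86 and 20.80 CPM, and in treated knockout 59.53, 55.45, 70.66 and 70.37 CPM. The highest library was treated wild type replicate 4 and the lowest untreated knockout replicate 4, and hydroquinone and untreated libraries overlapped in both genotypes.

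H2-Ab1 (ENSMUSG00000073421, chromosome 17, 34257689 to 34269419, plus strand) encodes a β chain. It was at 44.71, 51.92, 35.99 and 35.53 CPM in untreated wild type and at 57.08, 83.55, 34.08 and 95.54 CPM in treated wild type. In knockout it was at 54.91, 44.53, 23.13 and 20.54 CPM untreated and at 57.98, 57.60, 80.37 and 73.40 CPM with hydroquinone. Every knockout library with hydroquinone thus lay above every untreated one, by a narrow margin over untreated replicate 1, while in wild type, treated replicate 3 was the lowest of the 8.

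H2-Eb1, the other β chain of the set (ENSMUSG00000060586, chromosome 17, 34305867 to 34316674, plus strand), had the same highest and lowest libraries as H2-Ab1. Its mean was 42.11 ± 9.62 CPM in untreated wild type, 66.86 ± 27.30 CPM in treated wild type, 34.64 ± 14.45 CPM in untreated knockout and 62.62 ± 9.09 CPM in treated knockout (SD, n = 4 libraries each). Cd74, the invariant chain (ENSMUSG00000024610, chromosome 18, 60803848 to 60812652, plus strand), averaged 92.29 ± 21.36, 132.8 ± 54.5, 75.15 ± 33.27 and 131.3 ± 16.3 CPM in the same groups. For both genes the treated wild-type libraries were spread from replicate 3, below all 4 untreated ones, to replicate 4, the highest of the series, while the treated knockout libraries lay above all untreated knockout libraries.

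Ciita, the class II transactivator (ENSMUSG00000022504, chromosome 16, 10480059 to 10528418, plus strand), was the least abundant member, with 24 to 158 counts per library. It was at 3.07, 3.21, 1.23 and 2.35 CPM in untreated wild type, 3.18, 2.88, 3.09 and 3.99 CPM in treated wild type, 4.35, 3.24, 0.773 and 1.23 CPM in untreated knockout and 0.986, 3.21, 5.11 and 3.84 CPM in treated knockout. Its groups overlapped throughout, and its second lowest library, treated knockout replicate 1, was not among the lowest for the chains. Of its exon bases, 3.45% overlap Dexi on the opposite strand, which averaged 14.29 CPM against 2.86 CPM for Ciita. Since the strand setting of the counting is not given in the sources used here, reads there cannot be assigned to 1 of the genes.

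The class I heavy chains were far more abundant. H2-K1 (ENSMUSG00000061232, chromosome 17, 33996017 to 34000347, minus strand) was at 394.8, 343.2, 269.4 and 399.3 CPM in untreated wild type and at 500.5, 892.9, 187.5 and 461.5 CPM in treated wild type. It was at 264.4, 291.0, 210.5 and 186.9 CPM in untreated knockout and at 350.8, 787.6, 496.3 and 337.7 CPM in treated knockout. All 4 treated knockout libraries lay above the untreated ones, replicate 2 most of all. In wild type, treated replicate 2 held the highest level of the series and treated replicate 3 was below all 4 untreated libraries.

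H2-D1 (ENSMUSG00000073411, chromosome 17, 35262730 to 35267499, plus strand), the other heavy chain, averaged 525.6 ± 97.3, 701.7 ± 304.7, 405.4 ± 101.1 and 662.8 ± 171.7 CPM in untreated wild type, treated wild type, untreated knockout and treated knockout (SD, n = 4 libraries each). The heavy chains resemble each other and the neighbouring H2-Q genes, sharing 12.8% of the 50-base transcript windows of H2-D1 and 9.63% of those of H2-K1 with other genes, so part of their reads may be split between copies. B2m, the light chain (ENSMUSG00000060802, chromosome 2, 122147686 to 122153083, plus strand), shares no window and averaged 472.8 ± 33.1, 543.6 ± 170.3, 384.6 ± 107.6 and 512.8 ± 110.8 CPM. Its untreated wild-type libraries were the tightest set of the 10 genes, with a coefficient of variation of 6.99%. They come from both eyes of 2 mice, whereas each treated group holds 4 mice, so these spreads are not alike.

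The TAP subunits were measured at lower levels. Tap1 (ENSMUSG00000037321, chromosome 17, 34187553 to 34197225, plus strand) was at 28.02, 26.47, 22.72 and 39.06 CPM in untreated wild type, 57.94, 83.30, 17.54 and 35.41 CPM in treated wild type, 31.04, 26.02, 19.74 and 17.44 CPM in untreated knockout and 29.60, 52.91, 51.00 and 28.87 CPM in treated knockout. Its libraries overlapped in both comparisons with hydroquinone, and, as for H2-K1, treated wild-type replicate 2 was the highest and untreated knockout replicate 4 the lowest. Tap2 (ENSMUSG00000024339, chromosome 17, 34203527 to 34216321, plus strand) averaged 57.47 ± 7.41, 69.84 ± 28.25, 49.91 ± 8.37 and 66.10 ± 9.93 CPM (SD, n = 4 libraries each). Psmb9 overlaps 3.87% of the Tap1 exon bases and the long noncoding RNA Gm15821 overlaps 14.1% of those of Tap2, both on the opposite strand. Psmb9 averaged 17.55 CPM and Gm15821 0.137 CPM.

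**Figure D1:**
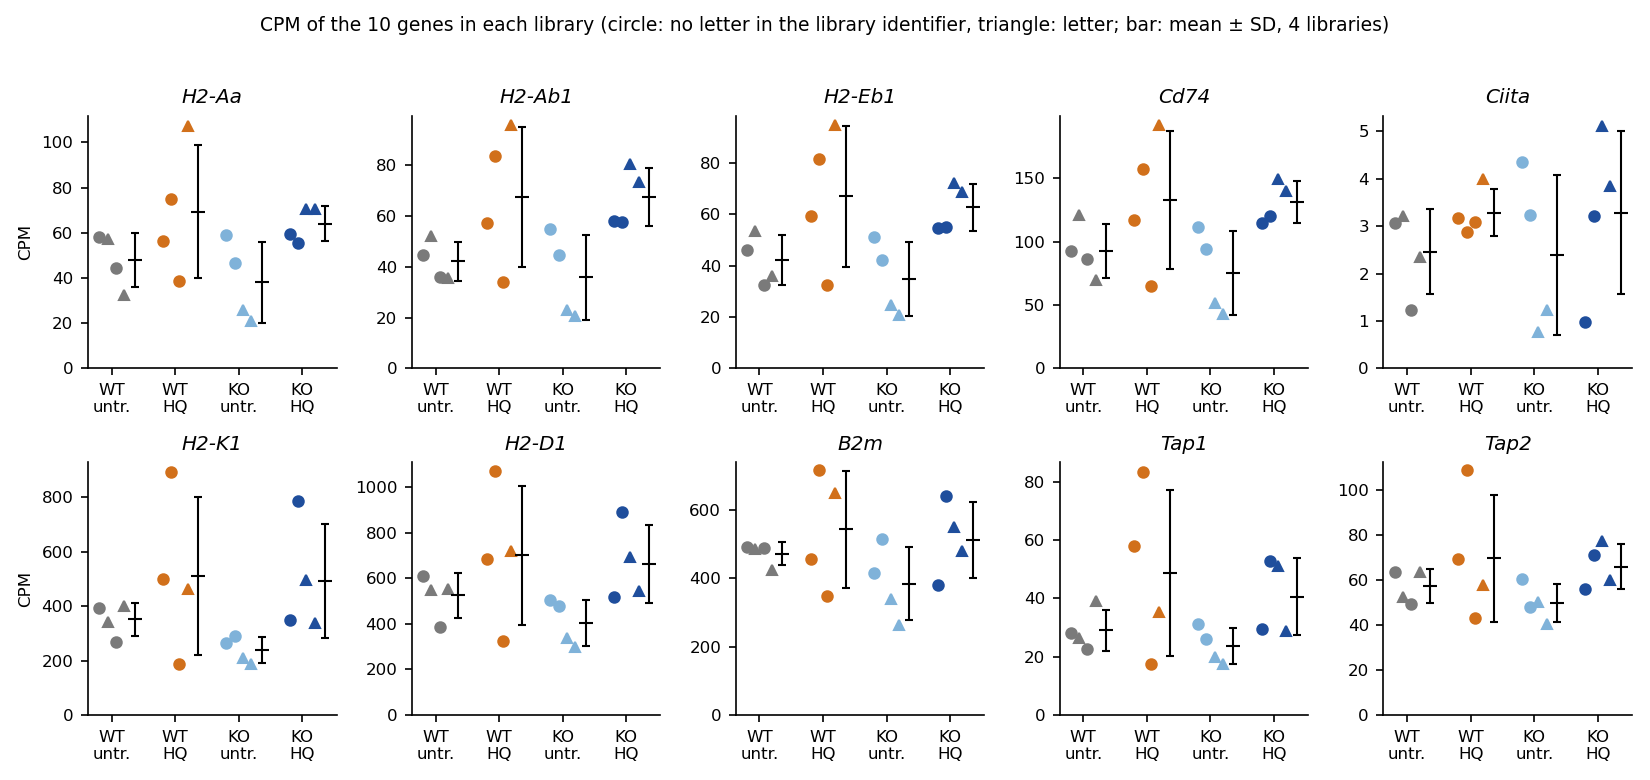
CPM of the 10 genes (vertical axes, each from 0) in the 4 groups, with 1 point per library and the mean ± SD of 4 libraries beside it. WT is wild type, KO knockout, untr. untreated and HQ hydroquinone; circles are libraries whose identifier has no letter and triangles those with one. The treated knockout libraries lie above the untreated ones for H2-Ab1, H2-Eb1, Cd74, H2-K1 and H2-D1, and the untreated knockout triangles are the lowest for the class II chains.

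Levels were also divided by the kilobases of exon of each gene, merged over all its annotated transcripts. The order below and the percentiles rest on that length, which can exceed the length of the transcripts expressed. Before the division H2-Aa, H2-Ab1 and H2-Eb1 averaged 54.84, 53.18 and 51.56 CPM over 16 libraries, so their order comes largely from it. Per kilobase, the mean levels over 16 libraries followed the order B2m (556.4 CPM per kb), H2-D1 (222.5), H2-K1 (135.6), Cd74 (64.26), H2-Eb1 (26.52), H2-Ab1 (20.71), Tap2 (16.09), H2-Aa (14.44), Tap1 (6.47) and Ciita (0.300). Among 15361 tested genes with a length, B2m stood at percentile 99.7, Cd74 at 95.6, H2-Aa at 76.6, Tap1 at 55.1 and Ciita at 2.31. Most neighbours in this order kept it in all 16 libraries. The exceptions were H2-Ab1 over Tap2, which held in 13 libraries, and Tap2 over H2-Aa, which held in 12, so these 3 genes could not be ordered beyond the spread between libraries. Across libraries the ranges of neighbours overlapped except for Tap1 and Ciita.

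Within a library, the class II chains and Cd74 kept similar proportions. The per-kb ratio of H2-Eb1 to H2-Ab1 ran only from 1.18 to 1.40 over the 16 libraries, while each gene varied over 4-fold (highest over lowest library 4.59 for H2-Eb1 and 4.65 for H2-Ab1). The ratio of Cd74 to H2-Ab1 ran from 2.84 to 3.66 and that of H2-Ab1 to H2-Aa from 1.14 to 1.68. Ciita did not share this, and H2-Ab1 over Ciita ran from 40.9 to 218.4, a span of 5.34-fold. For class I, H2-D1 over H2-K1 ran from 1.29 to 2.18 and B2m over H2-D1 from 2.00 to 3.81. Tap2 over Tap1 ran from 1.73 to 3.70, a span of 2.14-fold. Between the classes, H2-Ab1 over H2-K1 spanned 2.97-fold (0.0837 to 0.249) and Cd74 over B2m 2.01-fold (0.0774 to 0.155), the latter within the spans seen among class I and transport genes.

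The first comparison asks how the RPE responds to hydroquinone in wild-type mice. All 10 genes had a higher fitted level with hydroquinone, but none passed the test (edgeR quasi-likelihood test, adjusted p = 0.994 for each), where 0.0065% of the 15380 genes were called. None had an unadjusted p below 0.05, against 4.28% of all genes. The median log2 fold change was 0.53 over class II, 0.42 over class I and 0.51 over transport, and -0.00020 over all genes tested. The largest was that of Tap1 (0.74, SE 0.38), followed by H2-Ab1 (0.68, SE 0.33) and H2-Eb1 (0.67, SE 0.32), and the smallest that of B2m (0.20, SE 0.24). No gene of the 10 had all 4 hydroquinone libraries above all 4 untreated ones, as 1.13% of all genes did.

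The wild-type values rested on few libraries. Without treated replicate 2, whose class I and transport level was the highest of the series, the median log2 fold change of the 5 class I and transport genes went from 0.42 to 0.12 and that of Tap2 from 0.28 to -0.017. Without treated replicate 4, the highest for class II, the median of the 4 class II genes other than Ciita went from 0.60 to 0.37. Both replicates also stood high for other genes: summed interferon-response genes (16 genes) reached 2674 CPM in replicate 2, against 500.3 to 1557 CPM in the other wild-type libraries, and summed macrophage genes reached 1177 CPM in replicate 4, against 636.2 to 841.6 CPM. Cornea markers averaged 9432 CPM in untreated and 15564 CPM in treated wild type, and oligodendrocyte markers 3817 and 544.6 CPM, with a median log2 fold change of -3.13 over 5 genes, 2 of them with an unadjusted p below 0.05 and none called. In knockout the means were 7970 and 7284 CPM for cornea and 2383 and 1630 CPM for oligodendrocytes. The part of all these in the result was not tested.

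The second comparison asks the same in SUCNR1 knockout mice. Again all 10 genes had a higher fitted level with hydroquinone and none passed (edgeR adjusted p = 1.00 for each), where 0.0455% of all genes were called. An unadjusted p below 0.05 was found for 6 of the 10 genes, against 2.96% of all genes: H2-Aa, H2-Ab1, H2-Eb1, Cd74, H2-K1 and H2-D1. H2-K1, which went from 238.2 ± 47.9 to 493.1 ± 209.1 CPM (SD, n = 4 libraries each), had a log2 fold change of 1.05 (SE 0.37, edgeR unadjusted p = 0.0126). H2-Ab1 had 0.91 (SE 0.33, edgeR unadjusted p = 0.0141), H2-Eb1 0.86 (SE 0.32) and Cd74 0.81 (SE 0.33). The medians were 0.81 over class II, 0.71 over class I and 0.60 over transport, against -0.0014 over all genes.

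In knockout, 5 of the 10 genes (Cd74, H2-Ab1, H2-Eb1, H2-K1 and H2-D1) had every hydroquinone library above every untreated one, as 1.18% of all genes did. Within the forms of library identifier the classes behaved differently. Among libraries without a letter (2 against 2), the 4 class II genes other than Ciita had log2 fold changes of 0.10 to 0.21 and Ciita -0.88, while among libraries with a letter (2 against 2) the same 4 genes had 1.59 to 1.82 and Ciita 2.16. H2-K1 had 1.01 and 1.07, H2-D1 0.50 and 0.96, and B2m 0.10 and 0.77. The class II values thus came mostly from the libraries with a letter, where both untreated knockout libraries were low. Those libraries, replicates 3 and 4, also had the lowest summed macrophage levels of the series (580.7 and 480.0 CPM), and replicate 4 the highest rod level; the part of either in the result was not tested.

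**Figure D2:**
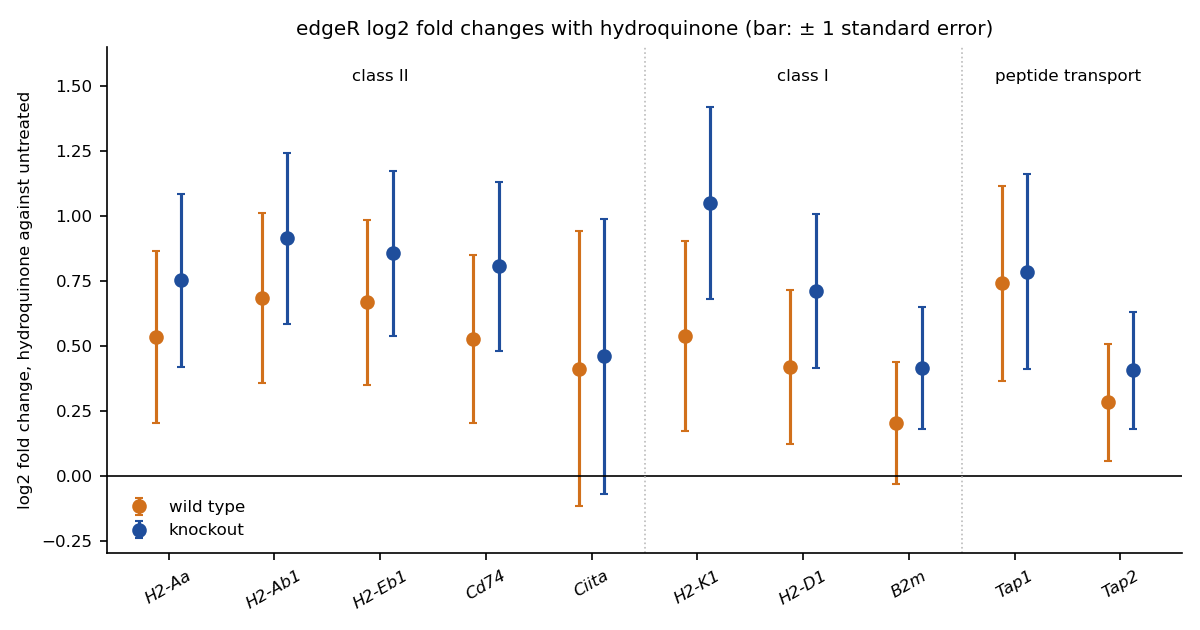
edgeR log2 fold changes of hydroquinone against untreated (vertical axis) for the 10 genes in wild type (orange) and knockout (blue), with bars of 1 standard error, from 4 libraries per group. All 20 points are above 0, between 0.20 for B2m in wild type and 1.05 for H2-K1 in knockout, and the bars of the genotypes overlap for every gene.

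Averaged over genotype, which uses all 16 libraries, 8 of the 10 genes had an unadjusted p below 0.05, against 5.72% of all genes, and Ciita and B2m did not. None passed the test, where 0.0845% of genes were called. The 10 genes were chosen with earlier results known, and most of them moved together across mice, as described below. Counts of them, here and above, are therefore not counts of separate observations. The smallest p-values were those of H2-Ab1 (log2 fold change 0.80, SE 0.23, edgeR unadjusted p = 0.0037, adjusted p = 0.734) and H2-Eb1 (0.76, SE 0.23, unadjusted p = 0.0042, adjusted p = 0.759). H2-K1 (0.79, SE 0.26), Tap1 (0.76, SE 0.27), Cd74 (0.67, SE 0.23), H2-Aa (0.64, SE 0.23), H2-D1 (0.56, SE 0.21) and Tap2 (0.34, SE 0.16) followed. The medians were 0.67 over class II, 0.56 over class I and 0.55 over transport, against 0.0046 over all genes. Among libraries without a letter alone, the averaged value was 0.35 for H2-Ab1 and 0.83 for H2-K1, and among those with one 1.47 and 0.69.

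Whether the loss of SUCNR1 changes these genes was compared within each treatment. In untreated mice all 10 genes had a lower fitted level in knockout, with medians of -0.28 over class II, -0.37 over class I and -0.25 over transport, and 0.011 over all genes. None was called, as 0.0% of all genes were (edgeR, 203 genes with an unadjusted p below 0.05), and no member had an unadjusted p below 0.05, against 1.32% of all genes. The largest differences were in H2-K1, at -0.56, and the smallest in Ciita, at -0.05. Over 27 settings of the fit, the reported one included, 22 kept all 10 genes lower, and the median over the 10 genes lay between -0.92 and 0.10.

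Under hydroquinone the genotypes were closer for these genes. The fitted level was lower in knockout for 9 of the 10, by at most 0.26 on the log2 scale (Tap1), with medians of -0.02, -0.08 and -0.17 over the 3 classes. None was called, as 0.0% of all genes were (edgeR, 643 genes with an unadjusted p below 0.05, and 3 genes called by DESeq2, none a member), and no member had an unadjusted p below 0.05, against 4.18%. Averaged over treatment, all 10 were lower in knockout and none was called, as 0.0% of all genes were (edgeR, 456 genes with an unadjusted p below 0.05), none of the 10 being among the 2.96% of genes with an unadjusted p below 0.05. Directions in the genotype comparisons were not stable, since the number of the 10 genes higher in knockout under hydroquinone ran from 0 to 8 over the 27 settings.

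The difference of the hydroquinone response between genotypes was tested as an interaction. All 10 estimates were positive, meaning a larger fitted difference in knockout, from 0.04 (Tap1, SE 0.53) to 0.51 (H2-K1, SE 0.52). None was called, as 0.0% of all genes were (edgeR, 296 genes with an unadjusted p below 0.05), and none of the 10 had an unadjusted p below 0.05, against 1.92%. Genes below an unadjusted p of 0.05 in 1 genotype alone were thus not shown to respond differently. In 14 of 27 settings all 10 estimates stayed positive.

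The class II level was summarised as the mean log2(CPM + 1) of the 5 class II genes, and likewise for the 5 class I and transport genes. The class II level was 4.93 ± 0.31 in untreated wild type, 5.41 ± 0.54 in treated wild type, 4.62 ± 0.67 in untreated knockout and 5.42 ± 0.28 in treated knockout (SD, n = 4 libraries each). The class I and transport level was 7.42 ± 0.18, 7.73 ± 0.70, 7.06 ± 0.31 and 7.71 ± 0.37. The difference of the levels was -2.49 ± 0.32, -2.32 ± 0.47, -2.44 ± 0.38 and -2.29 ± 0.40, so the groups differed in it by less than 1 SD. The libraries did not rank alike, since treated wild type replicate 2 ranked 1 for class I and transport and 3 for class II, and treated knockout replicate 2 ranked 2 and 7.

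The eyes of a mouse gave a view of the spread without genotype or treatment. In untreated knockout mouse 65010, the left eye (replicate 1) held 2.28 times the H2-Aa level of the right eye (replicate 3), 2.37 times that of H2-Ab1, 2.08 times that of H2-Eb1, 2.17 times that of Cd74 and 5.63 times that of Ciita. The class I and transport genes were 1.20 (Tap2) to 1.57 (Tap1) times higher in the same eye. The left eye had the fewest detected genes of all libraries. In each of the 3 mice with both eyes, 1 eye has a library with a letter and 1 a library without. In untreated wild-type mouse 65044 the eyes were within 1.30-fold for all 10 genes. In untreated wild-type mouse 65023 they differed most in Ciita (1.91-fold) and Tap1 (1.72-fold). The class II difference between the eyes of mouse 65010 was thus larger than the fitted class II differences with hydroquinone.

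**Figure D3:**
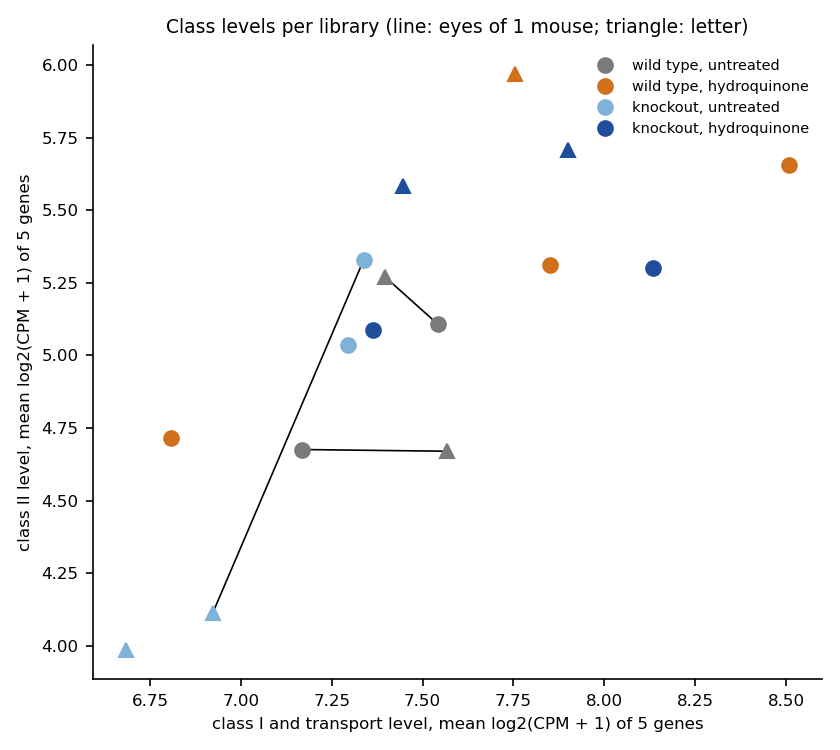
Class II level against class I and transport level (both mean log2(CPM + 1) of 5 genes), 1 point per library, coloured by group, with triangles for libraries with a letter and lines joining the eyes of 1 mouse. Untreated knockout replicates 3 and 4 lie lowest for class II, and treated wild type replicate 2 lies highest for class I and transport.

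Relations across mice were computed on log2(CPM + 1) with eyes averaged (13 mice, 105 relations, permutation p-values, 2-sided, adjusted over the family by Benjamini-Hochberg). The 4 class II genes other than Ciita moved almost as 1, with r from 0.979 to 0.996 over 6 pairs. For H2-Ab1 and Cd74, r was 0.993 and rho 0.984 (permutation p = 1e-05 for each, the smallest that the resamples can give, adjusted 0.0001 and 0.00013). Without the 2 mice farthest from the median of H2-Ab1 r was 0.986, and it was 0.969 over the 9 mice with a library without a letter and 0.992 over the 7 with a letter. The class I and transport genes were related with r from 0.769 to 0.986 over 10 pairs. For H2-K1 and Tap1 r was 0.951 and rho 0.945 (permutation p = 1e-05 and 2e-05, adjusted 0.0001 and 0.00021), with 0.933 without the 2 farthest mice, 0.932 without a letter and 0.953 with one.

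Across the classes the 20 pairs without Ciita had r from 0.626 to 0.859. Mice of all groups enter these r, so shifts between groups can add to them. With group means removed, the 20 pairs ran from 0.404 (H2-Aa and Tap1) to 0.843 (Cd74 and B2m). Cd74 and H2-K1 then had 0.641, H2-Aa and H2-K1 0.490, and Cd74 and Ciita 0.514. With group means kept, r for Cd74 and H2-K1 was 0.778 and rho 0.841 (permutation p = 0.0016 and 0.00053, adjusted 0.00391 and 0.00253). It was 0.622 without the 2 farthest mice, and 0.843 and 0.849 within the forms. Ciita was tied more loosely to the class II chains than they were to each other. For Cd74 and Ciita r was 0.612 and rho 0.626 (permutation p = 0.0267 and 0.0248, adjusted 0.0394 and 0.0384), with 0.566 without the 2 farthest mice. It was 0.062 over the 9 mice without a letter and 0.925 over the 7 with one, so the relation did not hold within both forms. Ciita had the fewest counts of the 10 genes, which limits its precision. Its r with the rod marker score was -0.807 and rho -0.819 (permutation p = 0.00067 and 0.00111, adjusted 0.00185 and 0.00416), -0.584 without the 2 farthest mice, and -0.578 and -0.729 within the forms. With the RPE marker score its r was 0.700 and rho 0.698 (permutation p = 0.0081 and 0.0107, adjusted 0.0155 and 0.0215). That r was 0.386 without the 2 farthest mice, and 0.138 and 0.543 within the forms.

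**Figure D4:**
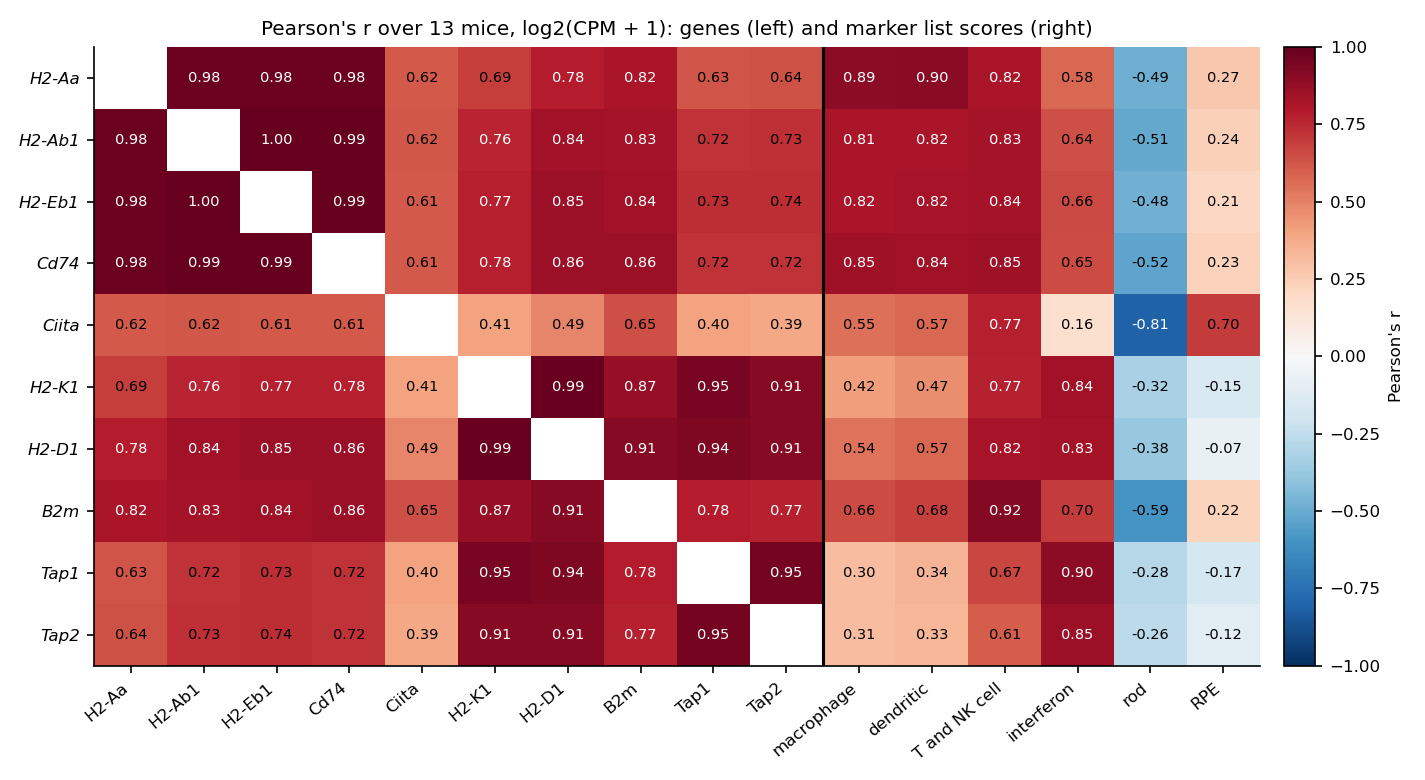
Pearson's r over 13 mice between each of the 10 genes (rows) and the other genes and the scores of 6 marker lists (columns), on log2(CPM + 1) with the eyes of a mouse averaged. The class II genes other than Ciita form a block above 0.97, the class I and transport genes a block of 0.77 to 0.99, and the macrophage column is at 0.81 to 0.89 for the class II genes other than Ciita and at 0.30 to 0.66 for class I and transport, with Ciita at 0.55 among the latter.

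The classes were set beside the markers of the cells that could carry them. A score (mean log2(CPM + 1)) of 16 macrophage and microglia genes had r from 0.814 to 0.894 with the 4 class II genes other than Ciita, and from 0.305 to 0.656 with the 5 class I and transport genes. For Cd74 r was 0.845 and rho 0.687 (permutation p = 0.00032 and 0.0116, adjusted 0.00133 and 0.0226), and r was 0.680 without the 2 farthest mice. Within the forms it was 0.341 without a letter and 0.975 with one, so it rested mainly on the libraries with a letter. For Tap1 r was 0.305 and rho 0.253 (permutation p = 0.314 and 0.405, adjusted 0.354 and 0.458), with 0.552 without the 2 farthest mice. The separation of the classes did not hold without the 2 farthest mice, where r ran from 0.564 to 0.680 for the 4 class II genes and from 0.219 to 0.689 for class I and transport, nor among the mice with a letter, where it ran from 0.952 to 0.983 and from 0.561 to 0.968. Among those without a letter it ran from 0.341 to 0.507 and from -0.032 to 0.252. The difference between the classes in r was not tested. A score of 13 RPE genes had r of 0.206 to 0.273 with the 4 class II genes and -0.175 to 0.221 with class I and transport. Among mice without a letter it was -0.801 to -0.675 and -0.623 to -0.148. Among those with a letter it was 0.704 to 0.724 and 0.344 to 0.640, so its sign was not kept between the forms.

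For a score of 16 interferon-response genes, r was 0.698 to 0.897 with the class I and transport genes and 0.577 to 0.663 with the 4 class II genes. These ranges overlapped without the 2 farthest mice (0.450 to 0.890 and 0.427 to 0.645) and among mice without a letter (0.678 to 0.831 and 0.713 to 0.775). For Tap1 r was 0.897 and rho 0.885 (permutation p = 4e-05 and 8e-05, adjusted 0.00028 and 0.00056), with 0.774 without the 2 farthest mice, 0.831 without a letter and 0.888 with one. For Cd74 r was 0.652 and rho 0.687 (permutation p = 0.0166 and 0.012, adjusted 0.0277 and 0.0229), and 0.427 without the 2 farthest mice. Within the forms this was 0.775 and 0.518. The macrophage score was higher with hydroquinone in most of its genes (13 of 16, median log2 fold change 0.27 averaged over genotype, none called). None of these had an edgeR unadjusted p below 0.05. The interferon list was higher too (15 of 16, median 0.61, none called), and 10 of its genes had an unadjusted p below 0.05. Over all genes the median was 0.0046, and 5.72% had an unadjusted p below 0.05. Summed interferon genes averaged 923.5 ± 200.9 CPM in untreated and 1434 ± 932 CPM in treated wild type (SD, n = 4 libraries each). The treated value rested much on replicate 2, at 2674 CPM. In knockout the means were 622.3 ± 124.7 and 919.7 ± 163.6 CPM. T and NK cell markers were also higher in the 3 of 8 genes tested (median 0.99, 2 with an unadjusted p below 0.05, none called), with a summed level of 11.9 CPM in untreated and 19.2 CPM in treated wild type, and of 10.6 and 20.1 CPM in knockout. The part of these lists in the hydroquinone values of the 10 genes was not tested.

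B cell markers (6 genes, Ms4a1 and Cd79a among them) summed to between 1.01 and 7.04 CPM per library, and 5 of the 6 averaged below 1 CPM. Of 10 dendritic cell genes 5 averaged below 1 CPM, among them Flt3, Xcr1 and Clec9a, and the largest part of the summed level of 22.7 to 63.1 CPM was Itgax (mean 23.9 CPM), which macrophages also express. Zbtb46 averaged 8.23 CPM, Clec10a 4.95 CPM and Siglech 3.01 CPM. The score of this list had r of 0.816 to 0.903 with the class II genes other than Ciita, against 0.814 to 0.894 for the macrophage score. With class I and transport it was 0.335 to 0.682. Without the 2 farthest mice these ranges were 0.528 to 0.746 and 0.095 to 0.639. Among mice without a letter they were 0.235 to 0.438 and -0.155 to 0.214, and among those with one 0.945 to 0.962 and 0.558 to 0.941. T and NK cell markers (8 genes) summed to between 6.16 and 30.8 CPM, with Cd3e at 0 in 2 libraries. The largest part of that sum was Cd4 (mean 9.79 CPM), which some macrophages carry too. The score of the list had r of 0.820 to 0.846 with the class II genes other than Ciita and 0.605 to 0.920 with class I and transport, the highest being that of B2m (rho 0.951, permutation p = 1e-05 for each, adjusted 0.0001 and 0.00013, 0.944 without the 2 farthest mice, 0.859 and 0.959 within the forms). For the T and NK score without the 2 farthest mice, r was 0.679 to 0.813 with these class II genes and 0.484 to 0.944 with class I and transport. Among mice without a letter it was 0.385 to 0.537 and 0.627 to 0.859, and among those with one 0.966 to 0.976 and 0.651 to 0.959. Macrophage markers were present in every library, none at 0.

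**Figure D5:**
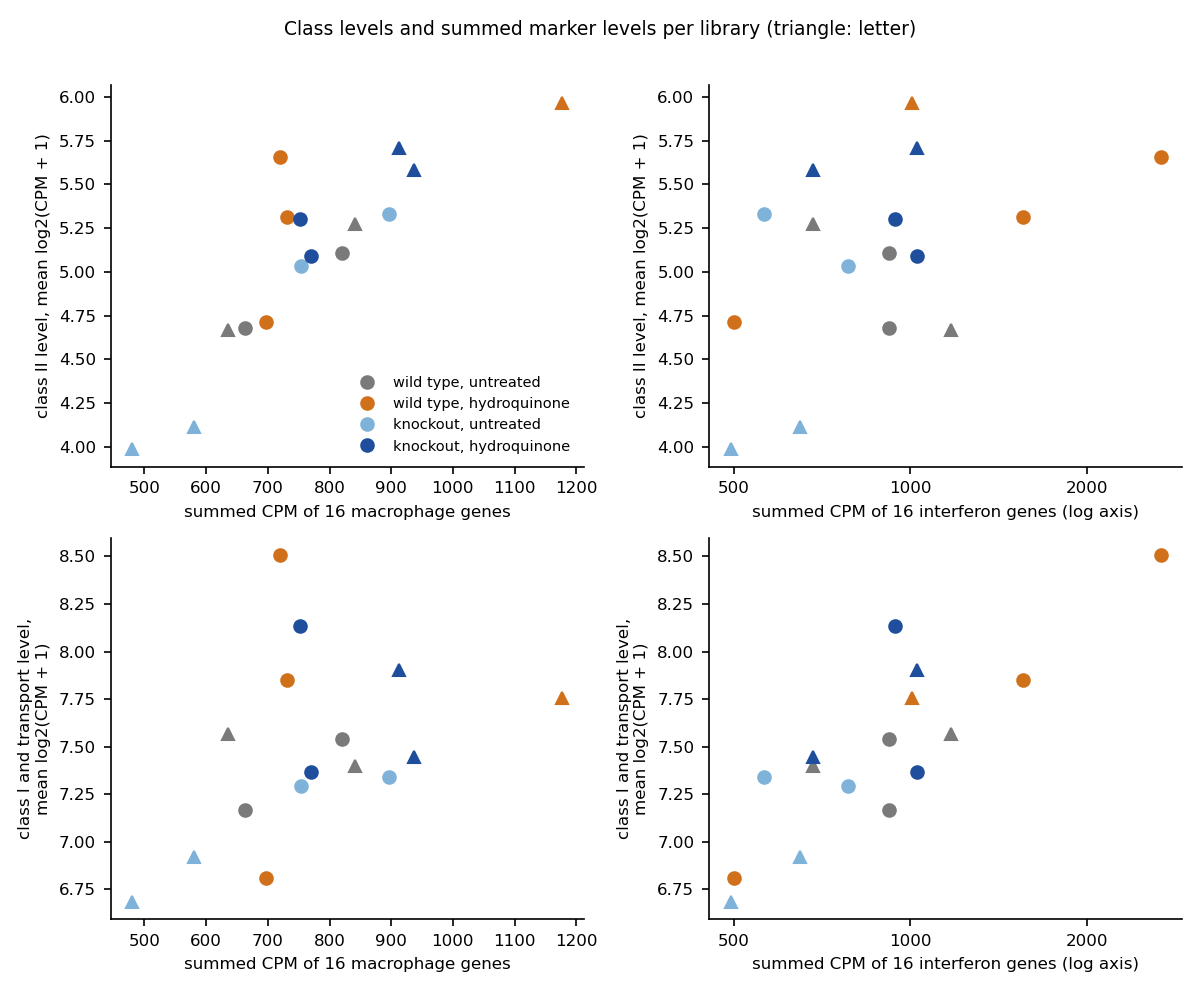
Class II level (top) and class I and transport level (bottom), each the mean log2(CPM + 1) of 5 genes, against the summed CPM of 16 macrophage genes (left) and of 16 interferon genes (right, log axis), 1 point per library, triangles with a letter. Wild type with hydroquinone replicate 4 stands alone at 1177 CPM of macrophage genes and replicate 2 at 2674 CPM of interferon genes, and each is the highest point of its class.

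Outside the 10 genes, the genes whose levels followed the class II chains most closely over the 16 libraries, among 15345 genes, were C1qc (r = 0.926), Ncf1 (0.916), Coro1a (0.912), Tyrobp (0.904) and Trem2 (0.904). C1qc is a complement component made by macrophages, Ncf1 a subunit of the phagocyte NADPH oxidase, Coro1a an actin-binding protein of leukocytes, and Tyrobp and Trem2 a signalling adaptor and its receptor on myeloid cells. The closest to class I and transport were H2-Q4 (0.981), Psmb9 (0.965), H2-T22 (0.952), Samhd1 (0.945) and H2-Q7 (0.932). H2-Q4, H2-T22 and H2-Q7 are nonclassical class I genes, Psmb9 is a subunit of the immunoproteasome that lies beside Tap1, and Samhd1 is a nucleotide-cleaving restriction factor. H2-K1 and H2-D1 share transcript windows with H2-Q7, and Psmb9 overlaps Tap1 exons. The part of shared reads in these r was not tested. The libraries share eyes of mice and these r are descriptions.

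Of 12 other genes of the class II pathway, 8 were tested and none was called in any comparison. With hydroquinone 6 of the 8 were higher in wild type, 8 in knockout and 7 averaged over genotype, none with an unadjusted p below 0.05, with a median log2 fold change of 0.05 in wild type, 0.10 in knockout and 0.08 averaged over genotype. The peptide-editing genes H2-DMa and H2-DMb1 and the transcription factors Rfx5, Rfxap and Rfxank, which bind the X box, belong to this list. H2-DMa had an averaged log2 fold change of 0.10 (SE 0.24). Ctss, the protease that cleaves the invariant chain, had 0.47 (SE 0.22, edgeR unadjusted p = 0.0518), with an adjusted p of 0.874.

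Of 23 other genes of the class I pathway 21 were tested and none was called, and 19 were higher with hydroquinone averaged over genotype, 8 of them with an unadjusted p below 0.05 (5.72% of all genes), and the median was 0.28. The genes with the smallest p-values of the pathway and interferon lists, none passing, were H2-Q6 and H2-Q7, neighbouring nonclassical class I genes whose reads are hard to separate. H2-Q6 had a log2 fold change of 1.88 in knockout (SE 0.54, edgeR unadjusted p = 0.0035, adjusted p = 1.00) and 1.45 averaged over genotype (SE 0.38, unadjusted p = 0.0016, adjusted p = 0.567). H2-Q7 had 1.89 (SE 0.56) and 1.45 (SE 0.39). Nlrc5, the transactivator of class I genes and relative of Ciita, named here for that role after its values were seen, averaged 6.12 ± 2.08, 11.6 ± 6.7, 3.04 ± 2.00 and 10.1 ± 4.7 CPM in the 4 groups (SD, n = 4 libraries each). Its log2 fold change with hydroquinone averaged over genotype was 1.33 (SE 0.38, edgeR unadjusted p = 0.0034, adjusted p = 0.710), against 0.44 (SE 0.38) for Ciita.

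Of the 16 interferon-response genes, all tested, none was called in any comparison. In wild type Irgm1, an interferon-induced GTPase, had a log2 fold change with hydroquinone of 0.67 (SE 0.29). All 16 were lower in untreated knockout than in untreated wild type, with a median of -0.58, none with an unadjusted p below 0.05. Averaged over treatment all 16 were again lower in knockout, with a median of -0.60, and 8 had an unadjusted p below 0.05, against 2.96% of all genes. The libraries were uneven, with summed levels of 1557, 2674, 500.3 and 1007 CPM in treated wild-type replicates 1 to 4. In treated knockout they were 1029, 940.5, 1027 and 682.2 CPM. The untreated wild-type libraries come from 2 mice. The part of treated wild-type replicate 2 in these genotype values was not tested. In the untreated comparison the smallest p-values were those of Rtp4 (-1.02, SE 0.48) and Gbp2 (-0.95, SE 0.47), both interferon-induced. Under hydroquinone they were those of Usp18, which removes ISG15 from proteins (-1.25, SE 0.48), and Gbp3 (-0.38, SE 0.19), and averaged over treatment those of Rtp4 (-0.99, SE 0.34) and Ifit1 (-1.04, SE 0.41). In the interaction they were H2-Q10 (3.38, SE 1.93), at a mean of 1.38 CPM, and Tapbpl (0.27, SE 0.22), a peptide editor of class I. None of these passed (edgeR adjusted p of at least 0.987).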

How the data were processed

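RNA was measured in 16 RPE libraries. The deposited table carries FPKM in its name. Its values are whole numbers throughout (100%), so the deposited values were taken as counts per Ensembl gene. The submitters' processing notes name STAR, Cufflinks, DESeq2 and mm10; how the counts were made, the annotation and the strand setting are not given in the sources used here. Symbols and positions came from GENCODE vM21 (GRCm38) and matched 51633 of 51912 identifiers.

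The members and all lists were chosen with earlier results of these data known. The 15380 genes that averaged 1 CPM or more (99.8% of counts) were tested with edgeR 4.0.16 in R 4.3.3 (quasi-likelihood F test, TMM scaling, 4 groups in 1 model), with Benjamini-Hochberg adjustment and a threshold of 0.05. Group values are mean ± SD of TMM-scaled CPM, and a pseudocount of 1 CPM was used for log2 levels. Standard errors came from the F statistic. Tested on simulated data, the hydroquinone fits recovered 74% (wild type) and 75% (knockout) of genes given 4-fold changes, and 45% in both for 2-fold. The simulated libraries were independent, with no effect of mouse, identifier form or other tissue built in, so recovery in these data may be lower. Alternatives were another scaling, no filter, DESeq2 1.42.0, limma 3.58.1 with the mouse as a block (correlation -0.020), summed eyes, covariates and libraries left out. Within pathway and interferon lists, the 2 genes with the smallest p per comparison were named where none passed; a gene this rule names in wild type is not reported here. For the most alike genes, r was taken with the mean standardized level of H2-Aa, H2-Ab1, H2-Eb1 and Cd74, or of the 5 class I and transport genes.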

Additional observations from a re-analysis of the deposited data

Results flagged for a closer look

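Of 44 sets of 4 libraries (the 10 genes and the difference of class levels, in 4 groups), 1 held a library far from the others of its group. For independent libraries chance flags about 1 in 20, so this is no more than chance gives. The flagged group holds both eyes of 2 mice, which that rate does not take into account. B2m in untreated wild-type replicate 4 was at 423.4 CPM, against 485.3 to 492.2 CPM in the other libraries, and the gap was 0.907 of the group's range on the log2 scale.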

How the results depend on the processing

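None of the 10 genes was called under any alternative that was run, and the lowest adjusted p of a member was 0.116, with edgeR on libraries with a letter only. Among all genes, hydroquinone in wild type called 1 gene as reported, 2 with median-of-ratios scaling, 20 with DESeq2, 3 with the mouse block in limma, 2 with the identifier form and 4 with the rod score as covariates, 0 in libraries with a letter, and 1 to 3 with 1 library left out. In knockout 7 were called as reported, 14 with DESeq2, 3 with eyes summed, 4 with the form as covariate, 1 without and 0 with a letter, 4 without the 2 libraries of fewest genes, and 3 to 11 with 1 library left out. Averaged over genotype 13 were called as reported, 39 with DESeq2, 6 with eyes summed, 2 without and 0 with a letter, and 7 to 15 with 1 library left out. DESeq2 called 3 genes between genotypes under hydroquinone, where edgeR called 0. Fewer libraries enter the fits by identifier form, and otherwise the cause was not tested.

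The hydroquinone value of Tap2 in wild type was -0.0081 with a letter only and -0.017 to 0.46 with 1 library left out. That of Ciita without a letter was -0.88 in knockout and -0.20 averaged over genotype, and the cause was not tested. Without Ciita, the class II level minus class I and transport level, wild type, untreated, was -1.69, the class II level minus class I and transport level, wild type, hydroquinone, was -1.49, the class II level minus class I and transport level, knockout, untreated, was -1.70 and the class II level minus class I and transport level, knockout, hydroquinone, was -1.43, since Ciita is the least abundant of the genes averaged. The fits by form and without the libraries of fewest genes were chosen after seeing the data. No paired analysis across groups was possible because each mouse belongs to a single group, and the replicate numbers only follow accession order.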
